A study of Homo sapiens with 10 samples.

Results

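The proteasome set described here holds the probe sets whose single gene symbol begins with PSM, a letter from A to G and a number, and whose deposited value was 25 or more on at least 2 of the 10 arrays. Of 65 probe sets with such a symbol, 49 passed that level and 16 did not. One of the 49 reads PSMC3IP, which shares the letters but encodes no subunit, and is kept apart. That left 48 probe sets of 36 genes, among 4276 probe sets tested of 22215 on the array. They fell into 9 probe sets of 6 PSMA genes, 13 of 10 PSMB genes, 5 of 5 PSMC genes, 12 of 10 PSMD genes, 5 of 2 PSME genes, 2 of PSMF1 and 2 of 2 PSMG genes. 3 further genes, PSMD5, PSMD12 and PSME4, had no tested probe set. Another 5 probe sets carried more than 1 symbol, so PSME2 and PSMA6 were not analysed here.

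RNA came from MOLT-4, an established line of human T-cell leukaemia, and was read on Affymetrix arrays on which sets of short oligonucleotide probes measure a transcript. There were 2 arrays at each of 0 h, 0.5 h, 1 h, 3 h and 6 h. Every sample, those at 0 h included, is labelled with 10 ug/mL MABL, an antibody against CD47, plus 50 ug/mL GAM, an abbreviation the labels do not spell out. The 0 h arrays are the control that the submitters name, and no untreated cells kept for the same times were analysed here, so antibody, GAM, culture time and handling cannot be told apart. The labels do not say whether replicates are separate cultures, so the p-values cover only a spread between samples that may be technical. Of 17 T-lineage markers on the array 11 passed the filter, CD3D among them at 12.2 to 12.5, while CD2, CD4 and CD7 did not. All B cell, myeloid, erythroid and epithelial markers lay below it, and of 4 fibroblast markers only COL1A1 passed, at 5.06 to 5.49.

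The proteasome degrades proteins tagged with ubiquitin. Its barrel-shaped core particle is built of outer rings of alpha subunits (the PSMA genes), which gate the entry, and inner rings of beta subunits (the PSMB genes), some of which carry the proteolytic sites. A regulatory particle caps the core: its base holds a ring of ATPases (the PSMC genes) that unfold substrates, and its other subunits (most PSMD genes) bind and remove ubiquitin. PSME genes encode other caps, PSMF1 a binding partner of the core and PSMG genes chaperones of its assembly.

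All values are square roots of the deposited scores, read as log2 expression. The authors do not state the scale, so this is a reading of their values and every size depends on it. A difference is a later minus an earlier mean on it, with n = 2 arrays per time. A probe set was called where limma's p, adjusted by Benjamini-Hochberg over all tested probe sets of that comparison, was under 0.05, and each adjusted p below is limma's. In bulk RNA, fewer cells with a transcript and less of it per cell cannot be told apart.

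The members did not move as a unit. Within the first hour, transcripts of 4 alpha subunits (PSMA1, PSMA2, PSMA3, PSMA4), 3 ATPases (PSMC1, PSMC2, PSMC6) and 4 PSMD genes (PSMD1, PSMD6, PSMD10, PSMD14) fell, with differences of -2.80 to -0.70, while no beta subunit fell. Of these PSMC6 lay below the filter level at 0 h and at every time up to 3 h, so its fall is between values too low to have been tested alone. By 6 h 7 of the other 10 genes had risen from their 1 h level. PSME3 and PSMG2 were also lower at 1 h and were not called as risen by 6 h. With these 2 genes counted and PSMC6 left out, 9 of the 15 probe sets lower at 1 h had risen by 6 h (60.0%). Of all tested probe sets lower at 1 h, 41.7% had done so. At 6 h 7 probe sets, led by those of the cap gene PSME3, were lower than at 0 h. In the fit across all arrays, 11 of 48 members (22.9%) were lower and 1 was higher at 0.5 h, against 15.1% and 1.92% of all tested probe sets. At 1 h 16 (33.3%) were lower and 3 higher, against 24.2% and 4.14% of all. At 3 h 15 (31.2%) were lower and 0 higher, against 26.4% and 2.53%; at an unadjusted p under 0.05, limma also gave 0 higher. At 6 h 7 (14.6%) were lower and 1 was higher, against 21.6% and 4.07%. By the F test over the 5 times 22 of 48 members (45.8%) were called, against 39.6% of all. Of the 12, 19, 15 and 8 calls at the 4 times, 3, 9, 1 and 6 held whichever single array was left out. PSMC6, which passed the filter through its 6 h arrays alone, is among those that held at each of the 4 times. It is the only one that held at 3 h. The shares of the whole set lay within 10 percentage points of the background. Shares of the groups were further apart, but the groups hold only 2 to 13 probe sets, some of the same gene. A single call therefore moves a group's share a good deal, and a difference between groups was not tested.

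**Figure D1:**
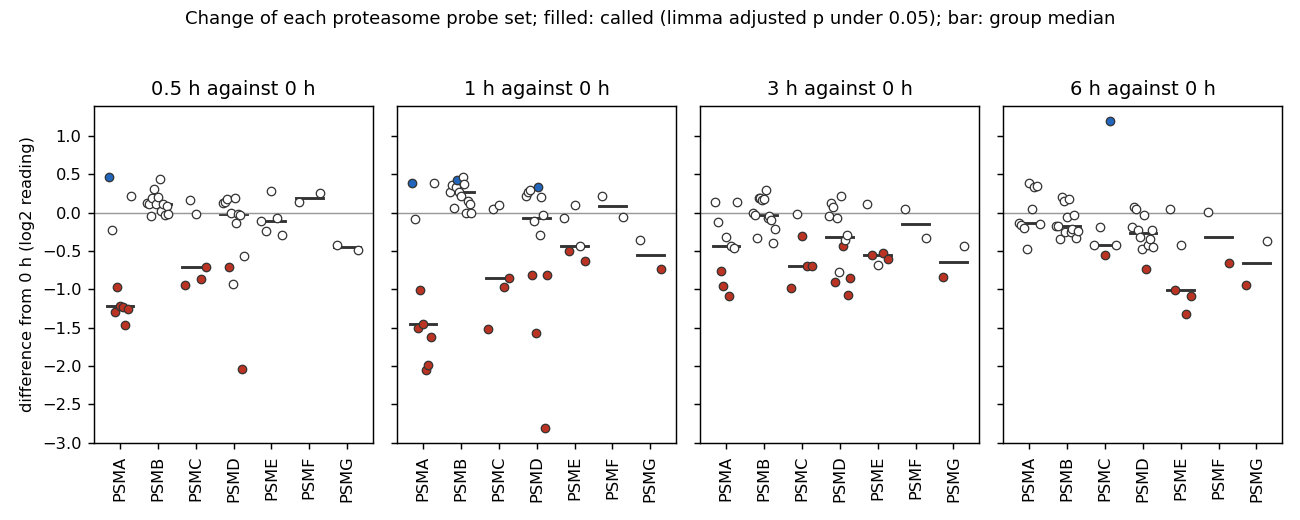
Difference from 0 h (vertical axis, log2 reading) of each of the 48 proteasome probe sets at 0.5 h, 1 h, 3 h and 6 h, by gene group; filled points were called by limma and bars are group medians. At 1 h the PSMA median was -1.46 and the PSMB median 0.27. By 6 h the lowest median over probe sets was that of PSME, at -1.01, where most probe sets read PSME3. With 1 probe set per gene the 6 h median was -0.48 for PSME and -0.65 for PSMG.

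Array-wide measures moved along with time. The mean of 6 probe sets for 18S ribosomal RNA was 9.03 ± 0.88 (SD, n = 2) at 0 h and higher by 1.41, 1.65, 2.17 and 2.63 at 0.5 h, 1 h, 3 h and 6 h. The mean of 18 spike-in probe sets, for transcripts added in the laboratory, was higher than at 0 h by 0.27, 0.25, 0.76 and 0.63. Against 0 h the array medians of tested probe sets were -0.13, -0.29, -0.31 and -0.25, so relative to its array a probe set stands that much higher than the change given. With equal array medians the lower and higher counts became 12 and 3 at 0.5 h, 14 and 20 at 1 h, 8 and 11 at 3 h, and 5 and 5 at 6 h. That refit shifts all tested probe sets alike, and the shares of all that were called in it are not given here. The member counts in it are therefore not read as a trait of the set. With the 18S level as a covariate 2 members stayed lower at 1 h, where 84 of 4276 probe sets did. The part of these measures in the changes from 0 h was not tested beyond these refits. The correlation between replicates was 0.991 to 0.994.

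The 250 bases before the start of a gene are shown here for PSMD14, PSMA2 and PSMC2, which fell together and hold a CCAAT box. Beside them are those of 2 beta subunit genes that hold the same letters and were not called against 0 h. Sequences are RefSeq's, GRCh38.p14, read 5′ to 3′ on the gene's strand and ending just before the start. Capitals mark CCAAT or its reverse complement, and TGACNNNGC or its reverse complement, the core of the antioxidant response element through which the factor NFE2L1 is known to drive proteasome genes. PSMD14's window lies at chr2:161308175-161308424 on the plus strand, PSMA2 at chr7:42932175-42932424 on the minus strand and PSMC2 at chr7:103347393-103347642 on the plus strand. PSMB3 lies at chr17:38752491-38752740 and PSMB9 at chr6:32853942-32854191, both on the plus strand.
PSMD14: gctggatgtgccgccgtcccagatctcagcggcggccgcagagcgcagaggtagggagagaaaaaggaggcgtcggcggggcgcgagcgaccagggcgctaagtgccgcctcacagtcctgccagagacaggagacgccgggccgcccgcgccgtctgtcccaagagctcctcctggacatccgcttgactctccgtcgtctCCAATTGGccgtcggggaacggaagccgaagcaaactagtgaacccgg
PSMA2: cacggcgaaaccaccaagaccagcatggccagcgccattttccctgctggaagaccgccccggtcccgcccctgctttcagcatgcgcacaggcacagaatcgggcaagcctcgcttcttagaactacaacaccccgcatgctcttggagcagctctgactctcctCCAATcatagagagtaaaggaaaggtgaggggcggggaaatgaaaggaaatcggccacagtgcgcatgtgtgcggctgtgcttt
PSMC2: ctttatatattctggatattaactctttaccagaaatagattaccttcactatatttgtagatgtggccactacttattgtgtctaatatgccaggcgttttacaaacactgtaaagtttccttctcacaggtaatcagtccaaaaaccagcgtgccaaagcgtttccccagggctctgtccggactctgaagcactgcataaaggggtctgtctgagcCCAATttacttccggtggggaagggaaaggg
PSMB3: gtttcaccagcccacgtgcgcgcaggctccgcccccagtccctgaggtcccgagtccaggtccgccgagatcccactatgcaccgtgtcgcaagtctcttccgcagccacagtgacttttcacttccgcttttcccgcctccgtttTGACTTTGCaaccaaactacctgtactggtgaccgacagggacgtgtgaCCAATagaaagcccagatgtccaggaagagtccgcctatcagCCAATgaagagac
PSMB9: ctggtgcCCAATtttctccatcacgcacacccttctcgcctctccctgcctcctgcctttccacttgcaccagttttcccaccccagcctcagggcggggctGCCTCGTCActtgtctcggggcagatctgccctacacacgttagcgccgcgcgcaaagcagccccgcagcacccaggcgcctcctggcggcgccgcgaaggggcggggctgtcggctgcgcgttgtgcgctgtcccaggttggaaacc

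In the PSMD14 window a CCAAT and a reverse CCAAT overlap, beginning 48 and 45 bases before the start. Windows were found for 31 of the 36 genes, 38 windows in all. CCAAT on either strand stood in a window of 8 of the 13 genes that were lower at 1 h by their brightest probe set and of 8 of the other 18, where 32% of all 35116 promoters held it. TGACNNNGC stood in 2 of the 13 and 6 of the 18, against 10.9% of all promoters. The E-box CACGTG stood in 1 and 2 (6.34% of all) and the ETS-type CCGGAA in 5 and 7 (14.5%). Some genes had more than 1 window, while the shares of all promoters count single windows. By window, CCAAT stood in 8 of 16 for the genes lower at 1 h and 8 of 22 for the others, and TGACNNNGC in 2 and 6. The 13 genes include PSMC6, whose fall lay below the filter level. A match is only a run of letters. Neither motif shown in capitals was limited to the genes that fell: PSMB3 holds 2 CCAAT and 1 TGACNNNGC and was not called.

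Of the alpha subunits, PSMA1, PSMA2, PSMA3 and PSMA4 fell at 0.5 h and 1 h, PSMA7 rose a little, and PSMA5 was not called at any time. In probe sets, 6 of 9 were lower at both 0.5 h and 1 h, 3 of 9 at 3 h and 0 of 9 at 6 h (1 at an unadjusted p under 0.05 in limma). Of all tested probe sets 15.1%, 24.2%, 26.4% and 21.6% were lower at these times, so the count at 3 h is near the background. Of the 6 lower at 0.5 h and 1 h, 3 read PSMA1. The group median was -1.22, -1.46, -0.43 and -0.14 at the 4 times, where that of all tested probe sets was 0.01, -0.03, -0.15 and -0.14. With equal array medians the PSMA median was -1.09, -1.17, -0.12 and 0.11, so that at 6 h its sign turned. The 1 h count of 6 was the same with equal array medians, after quantile normalization applied again and with the spike-in level as a covariate, and was 1 with 18S as a covariate.

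PSMA1, whose brightest probe set is described, stood at 9.54 and 9.15 (0 h), 8.04 and 8.14 (0.5 h), 7.81 and 7.62 (1 h), 9.03 and 8.73 (3 h), and 9.75 and 9.64 (6 h). The 0.5 h and 1 h arrays lay below all others, and those at 6 h above all others. It fell at 0.5 h (-1.25, SE 0.160, adjusted p = 0.00400) and at 1 h (-1.63, adjusted p = 0.000790), a 3.09-fold lower level, and at 3 h and 6 h its differences of -0.46 and 0.35 were not called. From 1 h to 6 h it rose by 1.98 (adjusted p = 0.000248). The 2 other PSMA1 probe sets fell at 1 h (-1.46 and -1.99) and rose by 1.85 and 2.33 from 1 h to 6 h. The names of the brightest and of 1 other end in x_at, the mark of probes that may also read similar transcripts. The 1 h fall of the brightest was called in all 21 refits, including the one with the 18S level (-1.43, adjusted p = 0.0435), and so were the rises from 1 h to 6 h of all 3.

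PSMA4, another alpha subunit, stood at 8.83 and 8.50 (0 h), 7.51 and 7.37 (0.5 h), 6.87 and 6.37 (1 h), 7.92 and 7.25 (3 h), and 8.60 and 8.82 (6 h). The 1 h arrays were the lowest and the 6 h arrays were within the range at 0 h. It fell at 0.5 h (-1.23, adjusted p = 0.0134), at 1 h (-2.05, SE 0.248, adjusted p = 0.00113) and at 3 h (-1.08, adjusted p = 0.0146), then rose by 2.09 from 1 h to 6 h (adjusted p = 0.00108). The 0.5 h call did not pass on leaving out 0 h replicate 1 or 0.5 h replicate 2 (adjusted p = 0.107 and 0.0947), and the 3 h call without 0 h replicate 1 (adjusted p = 0.105) and also without 3 h replicate 2. With the 18S level the 1 h fall was -1.72 (adjusted p = 0.0581), while the rise from 1 h to 6 h was 2.28 and called (adjusted p = 0.00286).

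PSMA2, also of the alpha ring, stood at 9.85 and 9.41 (0 h), 8.54 and 8.12 (0.5 h), 8.08 and 8.17 (1 h), 9.08 and 8.66 (3 h), and 9.46 and 9.41 (6 h). Arrays at 0.5 h and 1 h lay below those of every other time. It fell at 0.5 h (-1.30, adjusted p = 0.00660), at 1 h (-1.51, SE 0.204, adjusted p = 0.00152) and at 3 h (-0.76, adjusted p = 0.0266), and rose by 1.31 from 1 h to 6 h (adjusted p = 0.00340), a rise called in every refit. The 0.5 h call was lost without 0 h replicate 1 (adjusted p = 0.0587) and also without 0.5 h replicate 2 (0.0567), and the 3 h call without 0 h replicate 1 (adjusted p = 0.167), without 3 h replicate 2 or with equal array medians (-0.45, adjusted p = 0.0565).

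PSMA3 fell at 0.5 h, 1 h and 3 h, by differences of -0.97, -1.01 and -0.96. The 0.5 h call was lost without either 0 h array or 0.5 h replicate 2 (adjusted p up to 0.0885) and the 3 h call without 0 h replicate 1 (adjusted p = 0.0535), and its 6 h difference of -0.48 and its difference of 0.53 between 1 h and 6 h were not called. PSMA7 was the exception in direction: its brighter probe set rose by 0.46 at 0.5 h and by 0.38 at 1 h (adjusted p = 0.0280 and 0.0377), and was lower at 6 h than at 1 h (-0.52, lost without 1 h replicate 1 or either 6 h array). The rise at 0.5 h was lost without either 0 h array (adjusted p = 0.160 and 0.0665) or without 0.5 h replicate 2 (0.171), that at 1 h without any array of 0 h, 1 h or 6 h (adjusted p up to 0.174), and the other PSMA7 probe set, at 0.22 and 0.38, was not called. The name of the brighter PSMA7 probe set also ends in x_at. PSMA5 differed by -0.23, -0.08, -0.13 and -0.17.

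**Figure D2:**
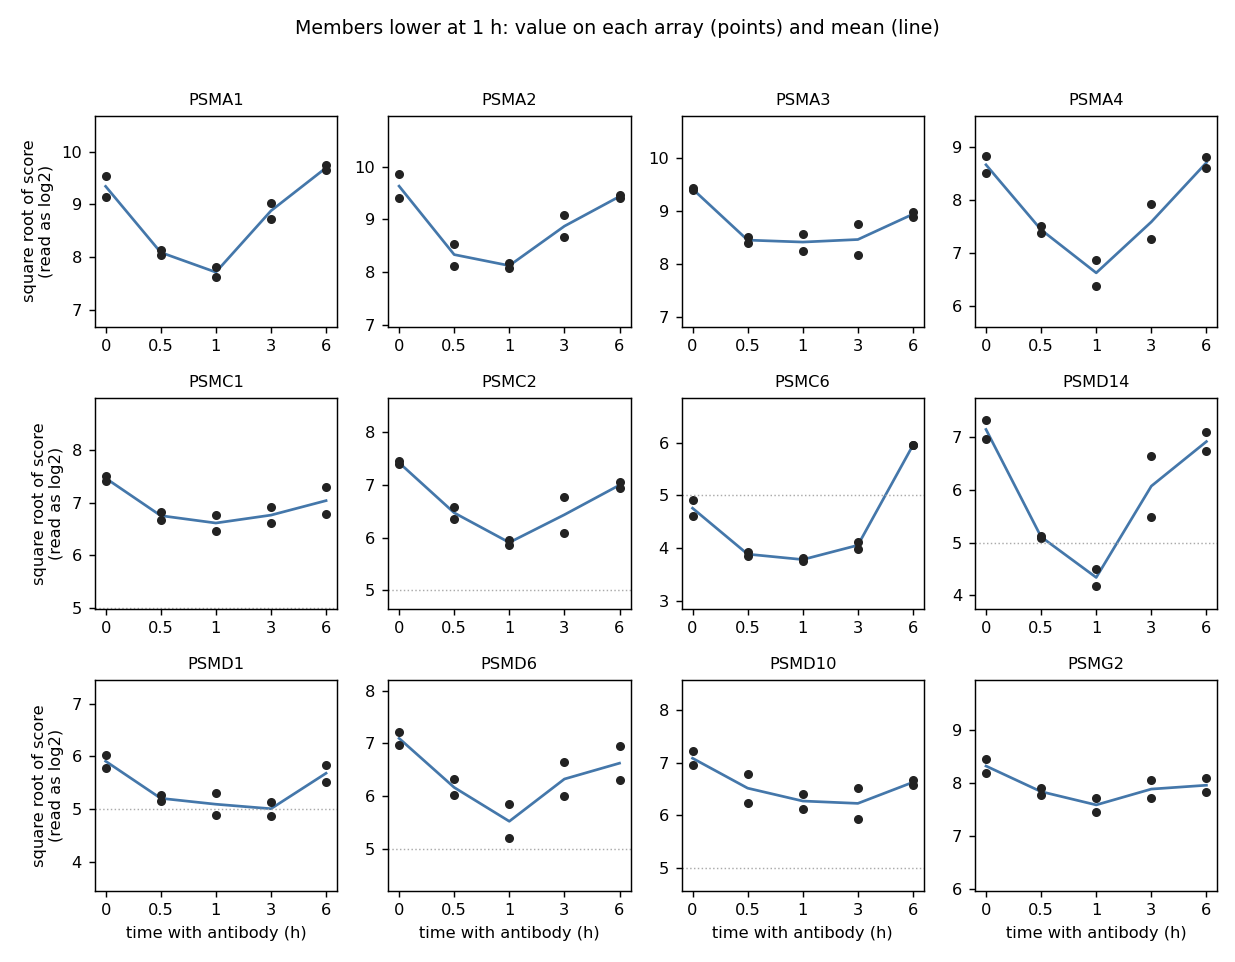
Value on each array (points; square root of the deposited score, read as log2) and mean (line) against hours with the antibody, spaced evenly, for 12 of the 13 genes lower at 1 h, each by its brightest probe set; the dotted line is the filter level of 5. PSMD14 went from 7.32 and 6.96 at 0 h to 4.17 and 4.51 at 1 h, and PSMC6 was above the filter only at 6 h.

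The beta subunits stayed within 0.47 of their 0 h level at every time. Of all tested probe sets 15.1%, 24.2%, 26.4% and 21.6% were lower at 0.5 h, 1 h, 3 h and 6 h, and 4.14% were higher at 1 h. Of the 13 beta probe sets, 0 were lower at these times in limma, with 0, 0, 1 and 1 at an unadjusted p under 0.05. The only call against 0 h was the dimmer PSMB2 probe set, which rose by 0.43 at 1 h (adjusted p = 0.0327), a call lost without either 0 h array or either 1 h array (adjusted p up to 0.138), while the brighter one did not pass. The group median was 0.12, 0.27, -0.03 and -0.18, and with equal array medians it was above 0 at each time (0.24, 0.56, 0.28 and 0.07). The count of lower beta probe sets stayed 0 in all refits but 1, which called PSMB8 at 3 h without 3 h replicate 1, whereas the higher count at 1 h rose to 11 of 13 with equal array medians and to 6 after quantile normalization applied again. Equal array medians shift all tested probe sets upward at 1 h, so the 11 are not read as a trait of the beta subunits.

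The proteolytic sites belong to PSMB6, PSMB7 and PSMB5, and in the immunoproteasome, which interferon is known to induce, PSMB9, PSMB10 and PSMB8 take their places. PSMB5, with the chymotrypsin-like site, stood at 8.28 and 7.96 (0 h), 8.26 and 8.21 (0.5 h), 8.22 and 8.03 (1 h), 8.27 and 7.88 (3 h), and 7.96 and 7.84 (6 h). PSMB6, with the caspase-like site, stood at 9.80 and 9.75, 9.74 and 9.75, 9.90 and 9.96, 9.86 and 9.51, and 9.76 and 9.72 at the same times. The 0 h arrays of PSMB5 spanned those of 0.5 h and 1 h, and those of PSMB6 differed from 0 h by at most 0.15 in the mean. PSMB7, with the trypsin-like site, stood at 9.80 and 9.68, 9.97 and 9.72, 10.11 and 10.11, 9.73 and 9.69, and 9.70 and 9.43. Its 1 h arrays were the highest, 0.37 above 0 h without passing (adjusted p = 0.0696), and it was lower at 6 h than at 1 h (-0.54, adjusted p = 0.0195), a call lost without either 1 h array or 6 h replicate 2 (adjusted p up to 0.109).

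Of the inducible subunits, PSMB8 stood at 7.21 and 7.01 (0 h), 7.10 and 7.29 (0.5 h), 7.37 and 7.08 (1 h), 6.98 and 6.46 (3 h), and 6.72 and 6.84 (6 h). PSMB9 stood at 7.35 and 7.33, 7.33 and 7.39, 7.77 and 7.65, 7.47 and 7.05, and 7.27 and 6.91. PSMB10 stood at 7.09 and 7.38, 7.58 and 7.78, 7.95 and 7.45, 7.70 and 7.36, and 7.41 and 7.42. None of the 3 passed against 0 h; the 1 h differences were 0.12, 0.37 and 0.47 (adjusted p = 0.701, 0.143 and 0.116). PSMB9 was lower at 6 h than at 1 h (-0.62, adjusted p = 0.0300), a call lost without either 0 h array, either 1 h array or 6 h replicate 2 (adjusted p up to 0.166). PSMB1, PSMB3 and PSMB4, subunits without a proteolytic site, were not called against 0 h either, and a PSMB4 probe set was lower at 6 h than at 1 h (-0.53), though not without 1 h replicate 1 or 6 h replicate 1.

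**Figure D3:**
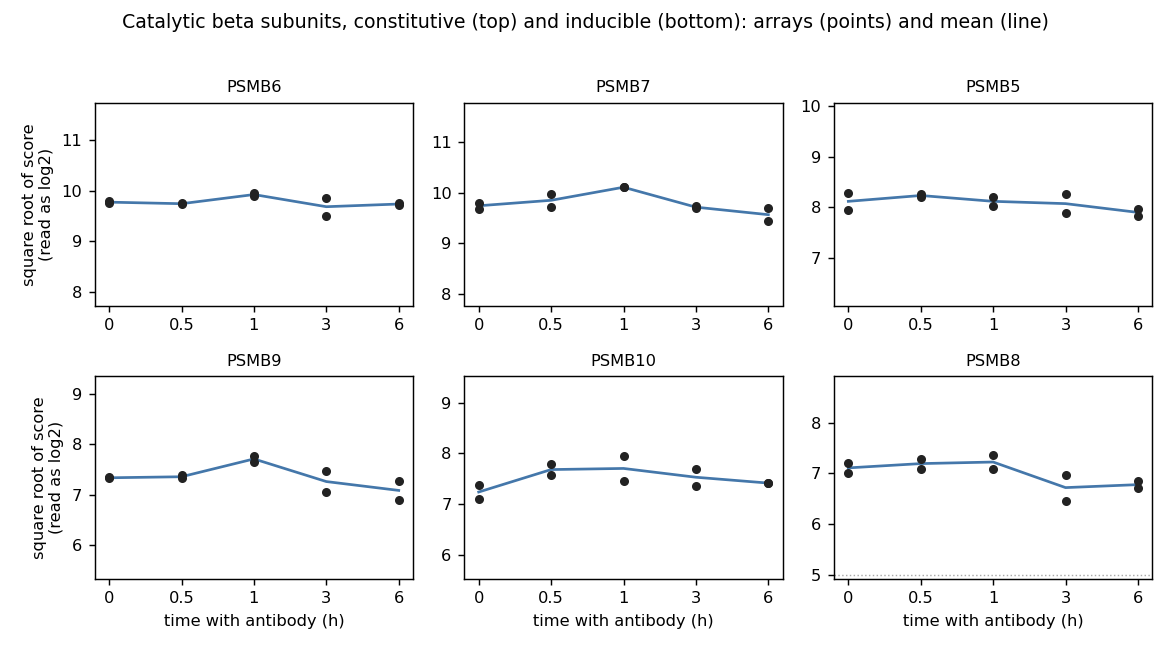
Value on each array (points; square root of the deposited score, read as log2) and mean (line) against hours with the antibody for the catalytic beta subunits, constitutive above and inducible below. None was called against 0 h. PSMB6, PSMB7, PSMB8, PSMB9 and PSMB10 had their highest mean at 1 h, from 0.12 (PSMB8) to 0.47 (PSMB10) above 0 h, and PSMB5 had it at 0.5 h.

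Among the ATPases of the base, PSMC1, PSMC2 and PSMC6 fell at 0.5 h, 1 h and 3 h, PSMC3 fell later and PSMC4 was not called. The counts of lower probe sets were 3, 3, 4 and 1 of 5 at the 4 times, with PSMC6 higher at 6 h, where 15.1%, 24.2%, 26.4% and 21.6% of all tested probe sets were lower. PSMC6 is 1 of the lower ones at the first 3 times, and the single call at 6 h is near the background. Group medians were -0.71, -0.85, -0.70 and -0.42.

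PSMC2 stood at 7.44 and 7.39 (0 h), 6.58 and 6.36 (0.5 h), 5.86 and 5.95 (1 h), 6.77 and 6.09 (3 h), and 6.93 and 7.06 (6 h). The 1 h arrays were the lowest and no later array reached the 0 h values. It fell at 0.5 h (-0.95, adjusted p = 0.0162), at 1 h (-1.51, SE 0.201, adjusted p = 0.00143) and at 3 h (-0.98, adjusted p = 0.00924), and rose by 1.09 from 1 h to 6 h (adjusted p = 0.00700). The 0.5 h call was lost without either 0 h array (adjusted p = 0.104 and 0.0581) or 0.5 h replicate 2 (0.113), and the 3 h call without 0 h replicate 1 (adjusted p = 0.0638).

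PSMC6 had the largest F statistic of the set, but it passed the filter through its 6 h arrays alone, so a difference there was built in. It stood at 4.91 and 4.61 (0 h), 3.93 and 3.84 (0.5 h), 3.82 and 3.75 (1 h), 4.13 and 3.99 (3 h), and 5.95 and 5.96 (6 h). The falls at 0.5 h, 1 h and 3 h (-0.87, -0.97 and -0.70) lay wholly below the filter level and are 0 with a floor of 5 on the values. The rise of 1.19 at 6 h (adjusted p = 0.000926) is 0.95 with that floor. With the spike-in or the 18S level as a covariate it was 1.40 and 1.52 and not called (adjusted p = 0.0504 and 0.123).

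PSMC3, a further ATPase, stood at 8.85 and 8.78 (0 h), 8.78 and 8.80 (0.5 h), 8.98 and 8.85 (1 h), 8.50 and 8.53 (3 h), and 8.31 and 8.23 (6 h). Its 1 h arrays were the highest and all arrays of 3 h and 6 h lay below the earlier ones. It fell at 3 h (-0.30, adjusted p = 0.0464), a call lost whichever array was left out (adjusted p up to 0.188) and a direction that turned with equal array medians (0.01), and at 6 h (-0.55, SE 0.0952, adjusted p = 0.00599), which was -0.30 and not called with equal array medians (adjusted p = 0.106). Its difference of -0.65 between 1 h and 6 h was a call kept in every refit. PSMC1 fell at 0.5 h, 1 h and 3 h (-0.71, -0.85 and -0.70). Its 0.5 h and 3 h calls were lost without either 0 h array, among others (adjusted p up to 0.199 and 0.155), the 3 h difference was -0.39 and not called with equal array medians (adjusted p = 0.0784), and its 1 h call was lost without 0 h replicate 1 (adjusted p = 0.0797) and also without 1 h replicate 1 (0.0782). PSMC4 differed by at most 0.19 from 0 h.

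Of the other subunits and partners of the regulatory particle, 12 were PSMD probe sets, of which 2, 4, 4 and 1 were lower at 0.5 h, 1 h, 3 h and 6 h in turn, counts near the 15.1%, 24.2%, 26.4% and 21.6% of all tested probe sets or, at 6 h, below it, and 1 was higher at 1 h. The group medians of -0.02, -0.07, -0.32 and -0.27 hide a wide spread, from -2.80 to 0.33 at 1 h, and turned to 0.11 and 0.22 at 0.5 h and 1 h with equal array medians. PSMD14, PSMD1, PSMD6 and PSMD10 made up the lower side at 1 h.

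PSMD14, the metalloprotease that cuts ubiquitin chains from substrates as they enter, had the largest fall of all members. It stood at 7.32 and 6.96 (0 h), 5.09 and 5.13 (0.5 h), 4.17 and 4.51 (1 h), 6.65 and 5.49 (3 h), and 6.73 and 7.10 (6 h). The 0.5 h and 1 h arrays lay below all others, the 2 arrays at 3 h were far apart, and 1 of the 2 at 6 h reached the range of 0 h. It fell at 0.5 h (-2.04, SE 0.337, adjusted p = 0.00770) and at 1 h (-2.80, adjusted p = 0.00113), a 6.98-fold lower level, or -2.14 with a floor of 5. The fall at 3 h (-1.07, adjusted p = 0.0462) was lost without every single array except 3 h replicate 1 (adjusted p up to 0.223) and turned to 0.06 with the 18S level as a covariate (adjusted p = 0.988). From 1 h to 6 h it rose by 2.58 (adjusted p = 0.00153), or 1.91 with the floor. Both the 1 h fall and this rise were called in all 21 refits; with the 18S level they were -1.94 (adjusted p = 0.0459) and 3.09. The 0.5 h call was lost without 0 h replicate 1 (adjusted p = 0.0699) and also without 0.5 h replicate 2 (0.058).

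PSMD1, the large scaffold of the base, stood at 6.03 and 5.79 (0 h), 5.26 and 5.15 (0.5 h), 4.89 and 5.30 (1 h), 5.14 and 4.88 (3 h), and 5.52 and 5.84 (6 h). The 3 middle times lay below 0 h and 6 h, near the filter level. It fell at 0.5 h, 1 h and 3 h (-0.70, -0.82 and -0.90, adjusted p = 0.0319, 0.0111 and 0.00866). The 0.5 h call was lost without any array of 0 h or 0.5 h (adjusted p up to 0.197), the 3 h call without 0 h replicate 1 or 3 h replicate 2 (up to 0.0689), and the 1 h call was lost without 0 h replicate 1 (adjusted p = 0.0856) and also without 1 h replicate 1 (0.0681). PSMD6, a lid subunit, fell at 1 h (-1.57, SE 0.306, adjusted p = 0.00632), lost without 0 h replicate 1 (adjusted p = 0.0532) and also without 1 h replicate 2 (0.0535), and rose by 1.10 from 1 h to 6 h, a call lost in 6 of the 10 refits with 1 array left out (adjusted p up to 0.192). PSMD10, an assembly chaperone of the regulatory particle, fell at 1 h and 3 h (-0.81 and -0.86), without a call at 0.5 h (-0.57). Its 1 h call was lost without any array of 0 h, 1 h or 6 h (adjusted p up to 0.185) and its 3 h call without either 0 h array or 3 h replicate 2 (up to 0.175).

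PSMD11, a lid subunit that stabilises the cap on the core, followed a slower course. It stood at 8.14 and 7.98 (0 h), 7.94 and 7.92 (0.5 h), 7.91 and 7.62 (1 h), 7.62 and 7.63 (3 h), and 7.37 and 7.29 (6 h). Each time had a lower mean than the one before, and the 6 h arrays were below all others. It fell at 3 h (-0.43, adjusted p = 0.0294) and at 6 h (-0.73, SE 0.120, adjusted p = 0.00484), of which the 3 h call was lost without 0 h replicate 1 or either 3 h array (adjusted p up to 0.162) and was -0.12 with equal array medians (adjusted p = 0.470). The 6 h call held with equal array medians (-0.48, adjusted p = 0.0234) but not with the spike-in or 18S level as a covariate (adjusted p = 0.194 and 0.385). PSMD4, a receptor for ubiquitin chains, stood at 9.14 and 9.18, 9.25 and 9.42, 9.52 and 9.39, 9.28 and 9.19, and 9.26 and 9.15 by its brightest probe set and was not called by any of its 3. PSMD9, a chaperone, rose by 0.33 at 1 h (adjusted p = 0.0439), lost without either 0 h array or either 1 h array, among others (adjusted p up to 0.166). PSMD2, PSMD3 and PSMD8 differed by -0.31 to 0.27 and were not called.

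**Figure D4:**
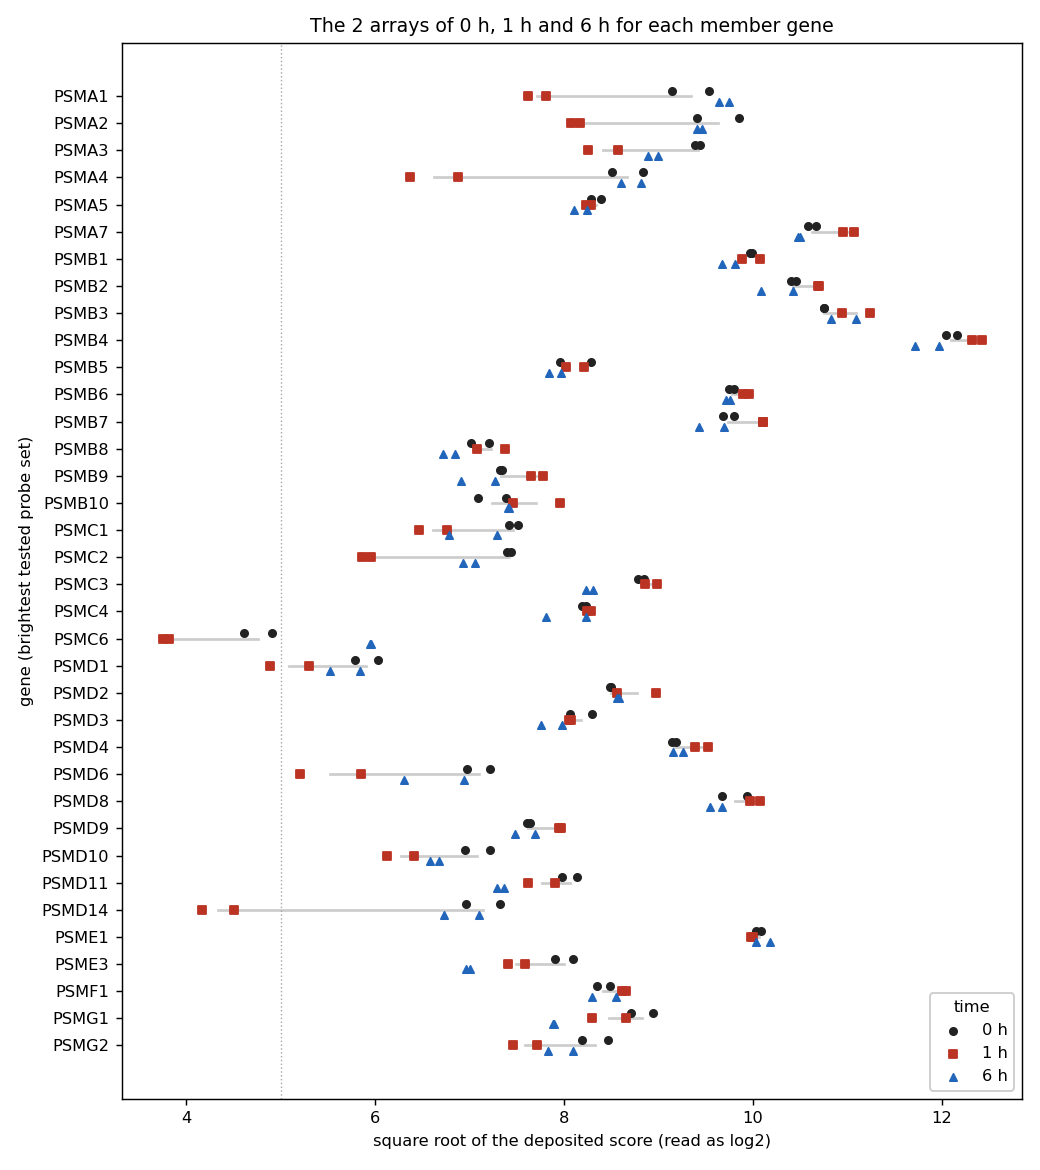
Values at 0 h (circles), 1 h (squares) and 6 h (triangles) for the brightest probe set of each of the 36 genes, as the square root of the deposited score read as log2, 2 arrays per time; a line joins the means of 0 h and 1 h. The squares lie well left of the circles for PSMA1, PSMA2, PSMA3, PSMA4, PSMC2, PSMC6, PSMD6 and PSMD14, and levels of different genes are not compared.

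The return between 1 h and 6 h was then examined. From 1 h to 6 h, 12 of 48 members were lower and 10 higher, against 11.7% and 12.2% of all tested probe sets. The 10 that were higher all belonged to the 16 that had been lower at 1 h, so 62.5% of these rose again (9 of 15, or 60.0%, without PSMC6), where 432 of 1036 probe sets lower at 1 h did so overall (41.7%, or 10.1% of all tested). Both comparisons use the 1 h arrays, so an array error at 1 h would enter both with opposite sign. The 10 were the 3 probe sets of PSMA1 and those of PSMA2, PSMA4, PSMC2, PSMC6, PSMD1, PSMD6 and PSMD14. Those of PSMA1, PSMA2, PSMA4 and PSMD14 were called in all refits, with the 18S and the spike-in level as covariates included. So was that of PSMC6, but its rise was built in by the filter, which it passed at 6 h only. The rise of PSMD1 was lost in 9 of the 10 refits with 1 array left out (adjusted p up to 0.260). Among the 12 that were lower were 4 beta subunit probe sets, of PSMB2, PSMB4, PSMB7 and PSMB9.

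The steps between times were mostly too small to call. From 0.5 h to 1 h 0 members were lower and 0 higher in limma (5 and 0 at an unadjusted p under 0.05), against 0.0234% and 0.0234% of all tested probe sets. From 1 h to 3 h 0 were lower (8 at an unadjusted p under 0.05) and 4 higher, the 3 PSMA1 probe sets and PSMD14, against 1.82% and 1.94%; each of the 4 was lost in 2 to 9 of the 10 refits with 1 array left out. From 3 h to 6 h 1 was lower, a PSME3 probe set, and 4 were higher, against 2.08% and 5.00%; the 4 were 2 PSMA1 probe sets, PSMA4 and PSMC6, and of the 5 only PSMC6, with its built-in rise, held whichever array was left out.

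The submitters' own rule, with both replicates over 2-fold from the geometric mean at 0 h, took 6 members as lower at 0.5 h (the 3 of PSMA1, PSMA2, PSMA4 and PSMD14) where it took 5.99% of all tested probe sets. At 1 h it took 8, PSMC2 and PSMD6 having joined, against 11.4% of all. At 3 h it took 0 (6.69% of all), and at 6 h 2 probe sets of PSME3 as lower and PSMC6 as higher, where it took 4.09% and 0.935% of all.

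PSME3, the cap of the nuclear proteasome that works without ubiquitin, also fell but did not return by 6 h. Its brightest probe set stood at 8.09 and 7.91 (0 h), 7.93 and 7.60 (0.5 h), 7.58 and 7.41 (1 h), 7.56 and 7.34 (3 h), and 6.96 and 7.01 (6 h). The 6 h arrays lay below all others. It fell at 1 h (-0.50, adjusted p = 0.0337), at 3 h (-0.55, adjusted p = 0.0244) and at 6 h (-1.01, SE 0.146, adjusted p = 0.00298), a 2.02-fold lower level. The next 2 probe sets fell at 6 h (-1.08 and -1.32), and the dimmest, at 5.00 and 5.08 at 0 h, differed by -0.42 and was not called. The 6 h falls of the 3 held without any single array and with equal array medians (-0.77, -0.84 and -1.07), while the 1 h and 3 h falls of the brightest did not (-0.22 and -0.24 with equal array medians) and were also lost without 0 h replicate 1, among others (adjusted p up to 0.186 and 0.144). With the spike-in or 18S level as a covariate the brightest differed by -0.78 and -0.70 at 6 h and was not called (adjusted p = 0.209 and 0.500), and 2 of the 3 names end in x_at, the mark of probes that may also read similar transcripts.

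PSME1, a subunit of the cap that interferon is known to induce, stood at 10.09 and 10.03 (0 h), 10.00 and 9.89 (0.5 h), 10.01 and 9.98 (1 h), 10.27 and 10.09 (3 h), and 10.18 and 10.04 (6 h). It was not called at any time, the differences running from -0.11 to 0.12. In probe sets, PSME had 0, 2, 3 and 3 of 5 lower at the 4 times (0 also at an unadjusted p under 0.05 at 0.5 h), all of PSME3, and medians of -0.11, -0.44, -0.55 and -1.01. Of all tested probe sets 15.1%, 24.2%, 26.4% and 21.6% were lower at these times. PSME4 reached at most 2.60 on any array.

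PSMG1 and PSMG2, chaperones that work as a pair in building the alpha ring, were called at different times. PSMG1 stood at 8.95 and 8.71 (0 h), 8.54 and 8.28 (0.5 h), 8.65 and 8.30 (1 h), 8.13 and 7.84 (3 h), and 7.88 and 7.89 (6 h). All its later arrays were below those of 0 h, and it fell at 3 h (-0.84, adjusted p = 0.00828) and at 6 h (-0.94, SE 0.166, adjusted p = 0.00630). Without 0 h replicate 1 both calls were lost (adjusted p = 0.0665 and 0.0511), and the 3 h call also without 3 h replicate 2 (0.0563). PSMG2 stood at 8.46 and 8.19, 7.78 and 7.90, 7.72 and 7.46, 8.06 and 7.72, and 7.83 and 8.09. Its lowest array was at 1 h, and it fell at 1 h (-0.74, adjusted p = 0.0128), a call lost without 0 h replicate 1 (adjusted p = 0.0956) and also without 1 h replicate 2 (0.0898). Whether the courses of the pair differ was not tested.

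PSMF1 was read by 2 probe sets that disagreed. The brighter stood at 8.34 and 8.48, 8.52 and 8.58, 8.66 and 8.61, 8.54 and 8.38, and 8.56 and 8.30 at 0 h, 0.5 h, 1 h, 3 h and 6 h and was not called. The dimmer fell at 6 h (-0.66, SE 0.174, adjusted p = 0.0268), lost without either 0 h array (adjusted p = 0.0869 and 0.115), without 6 h replicate 1 (0.147) and with equal array medians (-0.41, adjusted p = 0.0635).

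**Figure D5:**
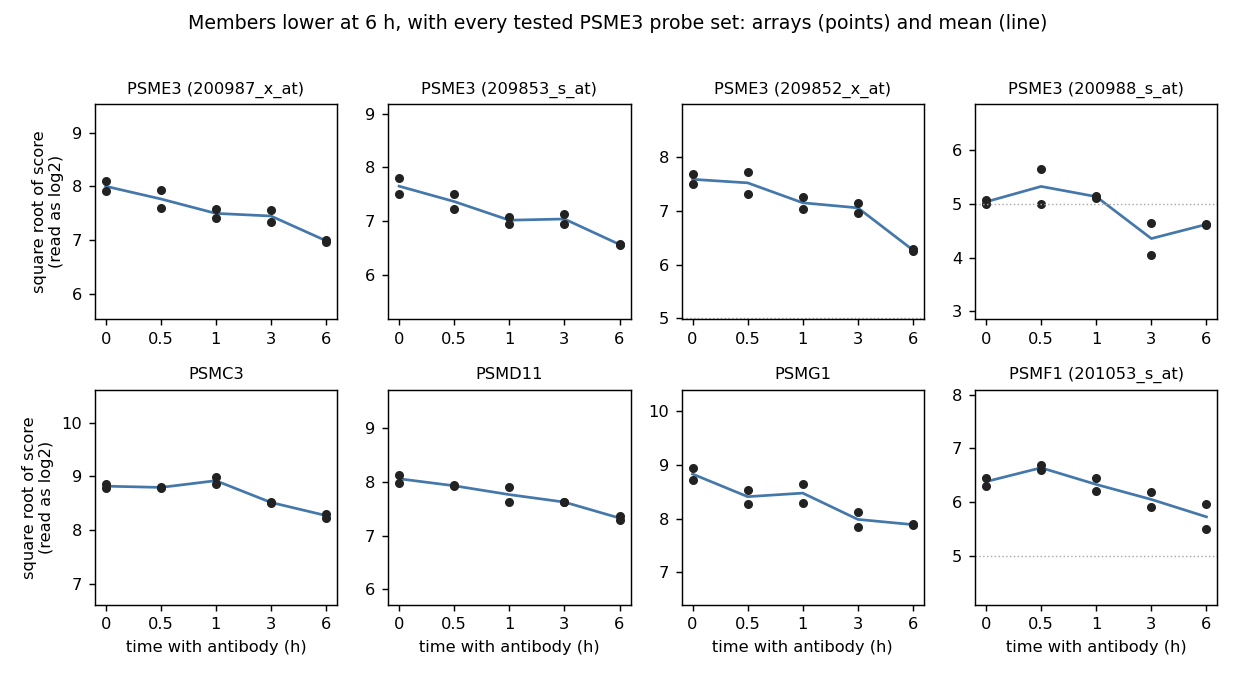
Value on each array (points; square root of the deposited score, read as log2) and mean (line) against hours with the antibody for the 4 tested PSME3 probe sets and for PSMC3, PSMD11, PSMG1 and the dimmer PSMF1 probe set, all but the dimmest PSME3 probe set lower at 6 h. The brightest PSME3 probe set went from 8.09 and 7.91 at 0 h to 6.96 and 7.01 at 6 h.

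Genes of the ubiquitin and proteasome pathway outside the set were taken from a list of 39, of which 24 were tested, 1 probe set per gene, and 3 of these (CUL3, NFE2L2 and NGLY1) passed the filter at a single time. The counts of the 24 called lower were 6, 10, 11 and 6 at 0.5 h, 1 h, 3 h and 6 h, with 1 higher at 6 h. Of all tested probe sets 15.1%, 24.2%, 26.4% and 21.6% were lower at these times and 4.07% higher at 6 h. The lower counts include NFE2L2 at all 4 times, CUL3 at 1 h and 3 h, and NGLY1 at the first 3. The 1 higher was NGLY1. These counts are therefore partly set by the filter. USP14, a deubiquitinase bound to the regulatory particle, fell at all 4 times (-0.77, -0.88, -1.11 and -0.96). POMP, the chaperone that completes the core, fell at the first 3 (-0.41, -0.35 and -0.46, adjusted p = 0.0417, 0.0485 and 0.0191). At those times the array medians stood at -0.13, -0.29 and -0.31 against 0 h. Refits are not reported for genes outside the set. ZFAND5, which binds and activates the proteasome, fell at all 4 times (-1.40, -1.71, -1.21 and -1.44). The subunits SEM1 and ADRM1 were not called at any time, nor were UBB, a source of ubiquitin itself, and UBA1, which activates it. Of the factors known to drive proteasome genes, NFE2L1 was not called, with differences of 0.31, -0.18, 0.02 and 0.14, and NFE2L2 lay below 0 h at all 4 later times (-0.62, -0.68, -0.61 and -0.73) but passed the filter through its 0 h arrays alone, so that a difference was built in. NGLY1, the glycanase that NFE2L1 needs to become active, passed it through its 6 h arrays alone: its means were 4.68, 3.78, 3.84, 3.96 and 5.73 at 0 h, 0.5 h, 1 h, 3 h and 6 h, so its lower values at the first 3 later times lie below the filter level and its rise was built in too.

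At the edge of the filter, PSMD5 had 1 array at 5.31 and the rest of its arrays below the level of 5, and PSMD12 reached at most 4.58, so neither was tested. PSMC3IP, which the pattern takes in by its letters, fell at 1 h and 6 h (-0.45 and -0.51). In all, 24 of the 48 members were called at no time against 0 h (50%, where 53.4% of all tested probe sets were not), among them 12 of the 13 beta subunit probe sets.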

How the data were processed

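RNA of 10 MOLT-4 samples, 2 at each of 5 times, was hybridised to Affymetrix human expression arrays. For each probe set the authors deposited a score from GCRMA, per the submitters' processing notes; its version, scale and any later step are not given in the sources used here. GCRMA corrects background by probe sequence and normalizes between arrays, which can hide a change shared by most transcripts. The scores ran from 1.25e-05 to 238.1, and their square roots were read as log2. Of 22283 probe sets 68 controls were set aside, and those with 2 of 10 arrays at 5 or higher were tested. Symbols came from the platform annotation: 19071 probe sets had 1, 1043 several and 2169 none.

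A linear model with time as its 1 factor was fitted to all arrays with lmFit and eBayes of limma 3.58.1, R 4.3.3 (5 residual and 3.06 prior degrees of freedom, prior SD 0.139). Precision is limited by the number of arrays. The code was tested on simulated data. Alternatives covered scale, scaling between arrays, filter, floor, the replicate block, array measures as covariates and each array left out.

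Members and lists were chosen with earlier results of these data known. Values on every array are given for up to 3 called genes with the largest F statistic in each group, and for PSMB5 to PSMB10, PSMD4, PSMD11, PSMD14, PSME1, PSME3, PSMF1, PSMG1 and PSMG2 whatever their values. Same-numbered arrays of different times deviated together at correlations of -0.231 to 0.147, so the numbers were not taken to pair samples. Promoters are RefSeq's.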

Additional observations from a re-analysis of the deposited data

How the results depend on the processing

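Counts of members lower at 0.5 h, 1 h, 3 h and 6 h were 11, 16, 15 and 7. With the replicate block they were 11, 16, 14 and 7, and the block changed no count by more than 1.5 times. With no filter the lower counts at the first 3 times were 3, 9 and 2, with the spike-in level as a covariate 6 at 0.5 h and 0 at 3 h and 6 h, with the 18S level 0, 2, 0 and 0, and by the submitters' fold rule 6, 8, 0 and 2. At 3 h they were 8 with equal array medians and 8 after quantile normalization, and with 1 probe set per gene 4 at 6 h. Members higher numbered 1, 3, 0 and 1: with equal array medians 3, 20, 11 and 5, after quantile normalization 3, 12, 4 and 4, on untransformed scores 5 at 1 h, on log2 of the scores 0 at 0.5 h, with no filter, either covariate or the fold rule 0 at 0.5 h and 1 h, and at 6 h 0 with either covariate and with a filter at 49, which PSMC6 fails. Leaving out each array in turn gave 3 to 11, 9 to 17, 1 to 14 and 5 to 9 lower and 0 to 1, 0 to 2, 0 and 1 higher. The fewest came without 0 h replicate 1 (3, 9 and 1 lower at 0.5 h, 1 h and 3 h, and 5 at 6 h), without 0.5 h replicate 2 (3 at 0.5 h; 7 without 0 h replicate 2) and without 3 h replicate 2 (4 at 3 h). Among called members directions turned for PSMC3 at 3 h with equal array medians (0.0082), for PSMD14 at 3 h with the 18S level (0.060) and for a PSME3 probe set at 3 h with the spike-in level (0.024); the cause was not tested. Of 1756 refitted values of named genes 1582 kept their side of the threshold, and none of these that was called changed direction. Values that changed sign without a call are counted among the 1582. Equal array medians shift all tested probe sets alike, and the member counts under them are not set here against a share of all. Values below 5 near the filter limit PSMC6, PSMD1 and PSMD14.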
